A study of Arabidopsis thaliana with 15 samples.

Results

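Broad H2AK121ub peaks free of H3K27me3 are stretches of at least 3000 bp that carry a call for the ubiquitin mark of histone H2A and share no base with any call for the trimethyl mark of histone H3. Of the 16310 H2AK121ub peaks of wild-type seedlings, 628 (3.85%) met both conditions. They were 31.7% of the 1978 peaks of at least 3000 bp and 5.84% of the 10762 peaks without H3K27me3. They were chosen by length and by overlap with the 4367 H3K27me3 peaks, so neither their length nor their lack of H3K27me3 is a result. The other classes were 1350 broad peaks with H3K27me3, 10134 shorter peaks without it and 4198 shorter peaks with it.

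Both marks were mapped by ChIP-seq in whole seedlings of Arabidopsis thaliana grown for 10 days, with 2 replicates in each of 7 groups and 1 WT input, which makes 15 libraries. H2AK121ub was mapped in emf1, ring1ab and WT (Col-0), and H3K27me3 in emf1, lhp1, ring1ab and WT. The 2 peak lists analysed here are of WT alone, 1 for each mark, and give positions only. By the methods of the study, the lists keep the stretches that replicates shared. No test over samples could thus be made, the reads supporting a peak are unknown and the mutants enter no comparison. The methods of the study also merge WT seedlings of 7 days into the final lists, and whether the deposited ones hold them is not settled. WT seedlings carried no mutation. Whole seedlings mix cell types, so marks lying in different cells cannot be told apart from marks lying in the same ones.

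H2AK121ub is placed by Polycomb repressive complex 1 (PRC1), whose RING1 and BMI1 proteins are ubiquitin ligases, and H3K27me3 by PRC2, whose catalytic subunits in seedlings are CLF and SWN. H3K27me3 is known for keeping developmental genes silent, and many plant genes carry H2AK121ub without it. For genes with H2AK121ub alone, the study found higher expression than for genes with H3K27me3. It proposes that their chromatin is less accessible but still permissive. Expression was not examined here. A transcription start site (TSS) here is the outer end of an annotated protein coding gene, unless all genes are named. Genes were assigned to a peak that shared at least 1 bp with the gene body or with a window of 750 bp before the TSS. The lead gene of a peak is the protein coding gene with the most body bases under it.

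The members nearest the thresholds were close to the peaks left out. The shortest members were 3000 bp (lead gene PDX1.2), 3001 bp (AT1G26200) and 3005 bp (no coding gene). The longest H3K27me3-free peaks that missed the length were 2999 bp (LTI78), 2998 bp (FRO1) and 2996 bp (BRS1). Less than 100 bp above the minimum lay 57 members, and up to 100 bp under it lay 73 H3K27me3-free peaks. The members nearest an H3K27me3 peak were 130 bp (AT1G61260), 242 bp (AT2G41250) and 254 bp (HVA22B) from it. The broad peaks with the fewest shared bases had 31 bp (AT1G79520), 79 bp (TIP2) and 141 bp (STP14) in common with H3K27me3.

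The hairpins of 3 microRNA genes, chosen after their values were seen, show a pair of near-identical copies under 1 member and a member with no coding gene. MIR398b and MIR398c, whose product is known to target copper superoxide dismutase mRNAs, lay 3556 bp apart on chromosome 5 inside 1 member of 6956 bp (chr5:4689889-4696844). The annotated hairpins matched at 112 of 116 aligned positions (96.6%), with the same 5′ and 3′ mature microRNAs. MIR166a, whose product targets class III homeodomain leucine zipper mRNAs, lay in a member of 4222 bp (chr2:19172894-19177115) that touched no coding gene. The sequences below are the RefSeq hairpins in build TAIR10.1, written as DNA, with the 21-base mature microRNAs in capitals.
MIR398b (chr5:4691022-4691137, + strand): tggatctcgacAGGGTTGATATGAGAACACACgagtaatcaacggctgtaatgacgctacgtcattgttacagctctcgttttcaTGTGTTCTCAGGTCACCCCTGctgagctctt
MIR398c (chr5:4694694-4694808, + strand): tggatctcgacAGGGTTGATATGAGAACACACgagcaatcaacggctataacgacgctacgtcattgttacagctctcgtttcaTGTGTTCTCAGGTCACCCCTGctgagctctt
MIR166a (chr2:19176108-19176277, + strand): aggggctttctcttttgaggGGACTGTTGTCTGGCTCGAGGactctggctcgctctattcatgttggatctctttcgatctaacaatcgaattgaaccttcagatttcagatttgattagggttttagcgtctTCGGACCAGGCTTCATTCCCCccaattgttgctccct

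The next set shows the 200 bases upstream of the TSS of 7 coding genes whose TSS lay inside a member: 4 lead genes of the longest members, a ribosomal protein gene and a pair of neighbouring SAUR genes. All 7 stretches lay wholly inside their member, so they show promoter sequence under members and no peak edge. They were chosen with their values known. Capitals mark matches on either strand to the 8 short motifs counted in promoters of all genes. EXPA4 held 1 W-box core, SFP1 and BXL1 1 TATA match each, CYCD1;1 1 GAGA and 1 site II match, and AT3G16780 2 site II and 2 overlapping TATA matches. SAUR20 held 1 auxin response match, and SAUR19 held none of the 8.
EXPA4 (chr2:16545747-16545946, - strand): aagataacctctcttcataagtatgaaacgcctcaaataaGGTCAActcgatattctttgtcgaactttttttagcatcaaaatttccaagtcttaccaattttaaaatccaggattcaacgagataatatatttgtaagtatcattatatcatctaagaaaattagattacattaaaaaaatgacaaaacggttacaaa
SFP1 (chr5:9648308-9648507, + strand): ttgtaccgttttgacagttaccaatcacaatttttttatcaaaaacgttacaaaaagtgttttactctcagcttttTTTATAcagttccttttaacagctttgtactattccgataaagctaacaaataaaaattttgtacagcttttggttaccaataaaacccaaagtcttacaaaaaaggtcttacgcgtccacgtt
BXL1 (chr5:20016858-20017057, - strand): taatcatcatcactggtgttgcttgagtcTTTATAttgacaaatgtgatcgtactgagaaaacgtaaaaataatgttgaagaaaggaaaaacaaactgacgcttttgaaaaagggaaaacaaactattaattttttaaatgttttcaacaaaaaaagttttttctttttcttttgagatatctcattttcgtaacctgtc
CYCD1;1 (chr1:26439356-26439555, + strand): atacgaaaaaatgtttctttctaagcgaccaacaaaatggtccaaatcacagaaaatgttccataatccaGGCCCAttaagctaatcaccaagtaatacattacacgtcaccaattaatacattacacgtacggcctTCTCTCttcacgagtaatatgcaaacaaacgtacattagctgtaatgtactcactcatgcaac
AT3G16780 (chr3:5708626-5708825, + strand): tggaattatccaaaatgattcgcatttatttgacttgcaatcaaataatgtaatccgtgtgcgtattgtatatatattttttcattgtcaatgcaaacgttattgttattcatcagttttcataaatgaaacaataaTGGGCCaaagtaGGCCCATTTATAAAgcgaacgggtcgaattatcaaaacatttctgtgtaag
SAUR19 (chr5:5963406-5963605, - strand): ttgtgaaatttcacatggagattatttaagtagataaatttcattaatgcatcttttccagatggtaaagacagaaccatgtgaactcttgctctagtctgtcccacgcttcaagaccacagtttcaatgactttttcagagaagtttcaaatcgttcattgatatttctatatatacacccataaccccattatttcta
SAUR20 (chr5:5966786-5966985, - strand): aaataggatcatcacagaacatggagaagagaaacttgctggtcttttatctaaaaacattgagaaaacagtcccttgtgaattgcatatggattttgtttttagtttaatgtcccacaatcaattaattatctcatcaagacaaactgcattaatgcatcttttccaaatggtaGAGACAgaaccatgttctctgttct

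Together the members spanned 2.66 Mb (2.23% of the nuclear chromosomes). Their median length was 3823.5 bp (95% interval of the median 3752 to 3913 bp), with quartiles of 3332 and 4785 bp and a maximum of 13196 bp. Lengths of 3000 to under 3500 bp were the most frequent (219 peaks, 34.9%), and 10 members reached 8000 bp. By chromosome there were 166, 95, 122, 106 and 139 members on chromosomes 1 to 5, or between 4.82 per Mb on chromosome 2 and 5.70 per Mb on chromosome 4. Nearly all of them (624, 99.4%) lay in gene-rich chromosome arms, as did 99.0% of the broad peaks with H3K27me3 and 96.8% of the shorter H3K27me3-free peaks. The nearest H3K27me3 peak was a median of 7684.5 bp away (quartiles 3087 and 15155 bp), against 7629.5 bp for the shorter H3K27me3-free peaks, and 35 members (5.57%) had one within 1000 bp. The nearest other H2AK121ub peak was a median of 1658.5 bp away, and it was within 500 bp for 7 members (1.11%).

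Few members lay wholly inside a gene, and fewer than 50% of them held a complete one. The median member touched 2 coding gene bodies, with 24 members touching none, 242 touching 1, 260 touching 2 and 102 touching 3 or more. At least 1 complete gene body lay in 280 members (44.6%, 95% Wilson interval 40.7% to 48.5%), only parts of bodies in 309 (49.2%), and 15 members (2.39%) lay wholly inside 1 gene body. Among broad peaks with H3K27me3, a complete body was held by 58.1% (55.5% to 60.8%), and those peaks were longer, with a median of 4333.5 bp. Of the shorter H3K27me3-free peaks, 57.3% lay wholly inside 1 gene body and 2.98% held a complete one. Their median length was 685.5 bp, so this contrast with members follows in part from the length rule. All intervals given here cover counting error only, not differences between plants, and differences between classes were not tested.

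The lead gene, picked for its body bases, was somewhat longer than the usual coding gene. The median lead gene of a member was 2285.5 bp long (2211 to 2388 bp), against 2230 bp for broad peaks with H3K27me3, 2460.5 bp for shorter H3K27me3-free peaks and 2078 bp for all 27444 protein coding genes. All 1095 coding genes with body bases under members had a median length of 2106 bp. Its median number of exons was 4, equal to that of all coding genes, and 19.4% of lead genes had 1 exon, against 18.9% of all. The median member covered 93.8% of its lead gene's body (91.8% to 95.9%), and the lead gene filled 46.2% of the member. In broad peaks with H3K27me3 these values were 99.1% and 40.8%, and in shorter H3K27me3-free peaks 24.9% and 100%. The contrast with the shorter peaks follows in part from the length rule.

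A TSS of a coding gene lay in 544 members (86.6%, 83.7% to 89.1%), and 215 (34.2%) held 2 or more. The shares were 88.4% and 40.9% for broad peaks with H3K27me3, and 26.7% and 5.53% for shorter H3K27me3-free peaks. Longer peaks meet more start sites, so the density is also given: 0.309 TSSs per kb of member, against 0.297 per kb of broad peak with H3K27me3, 0.357 per kb of shorter H3K27me3-free peak and 0.230 per kb of genome.

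Relative to the lead gene, members began a median of 1021.5 bp upstream of the TSS (878 to 1213 bp) and ended 656.5 bp past the 3′ end (478 to 778 bp). Broad peaks with H3K27me3 reached farther, with medians of 1293 bp and 854 bp. Of the 604 members with a lead gene, 214 (35.4%) held both of its ends, 228 (37.7%) the TSS alone, 147 (24.3%) the 3′ end alone and 15 (2.48%) neither. The interval for both ends was 31.7% to 39.3% for members, against 45.6% to 51.0% for broad peaks with H3K27me3 (48.3%), of which 17.4% held the 3′ end alone. On the same scales the medians of shorter H3K27me3-free peaks were -122 bp and -1354.5 bp, where a negative value means that the peak edge lay inside the gene, and 65.2% held neither end. These peaks are shorter by rule, so the contrast follows in part from length. The upstream edge lay within 250 bp of the lead TSS for 26.2% of members, 22.7% of broad peaks with H3K27me3 and 56.4% of the shorter H3K27me3-free peaks. The downstream edge lay within 250 bp of the 3′ end for 11.4% of members, 17.0% of broad peaks with H3K27me3 and 14.1% of the shorter H3K27me3-free peaks. Most member edges thus lay farther than 250 bp from the corresponding end of that gene.

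Along the lead gene, cover by members was highest early in the body. At 22.5% of the body, 94.7% of lead genes were covered, and cover was 60.8% at 97.5% of the body, 49.5% at 1050 bp upstream and 57.6% at 250 bp past the 3′ end. The lead gene was picked for its body bases, so a high cover of the body follows in part from that choice.

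**Figure D1:**
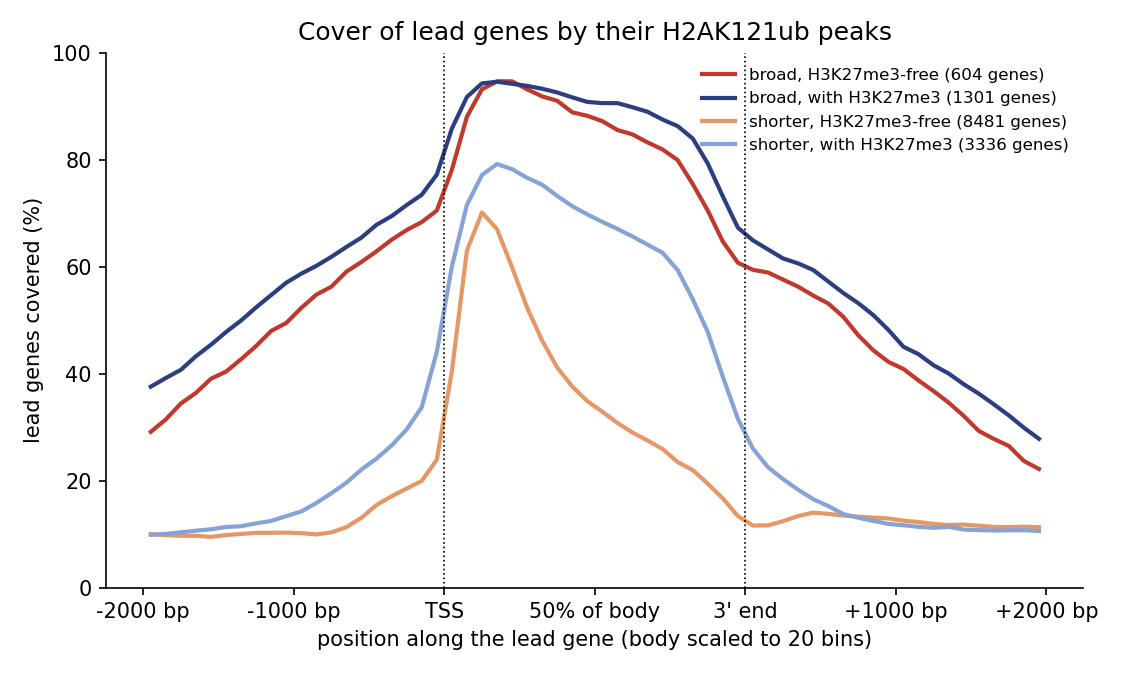
Share of lead genes covered by the H2AK121ub peaks of each class (y axis, %), by position along the gene, with the body scaled to 20 bins and 2000 bp of flank on each side. Broad H3K27me3-free peaks (604 genes) reach 94.7% inside the body and keep over 29% at 1950 bp upstream, near and mostly below the curve of broad peaks with H3K27me3 and unlike the narrow rise behind the TSS of the shorter H3K27me3-free peaks. The classes were split at 3000 bp, so the contrast with shorter peaks follows in part from length.

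By base, 31.4% of the sequence under members was coding, 8.73% was 5′ untranslated region, 6.82% 3′ untranslated region, 12.2% intron and 15.3% the 750 bp upstream windows. A further 1.83% lay in other genes or pseudogenes and 23.8% was intergenic. Relative to the genome, 5′ untranslated region was 1.78 times and upstream window 1.34 times as frequent, coding sequence 1.11 times, intron 0.799 times and other genes 0.193 times. Broad peaks with H3K27me3 had 29.1% coding and 27% intergenic sequence, and their share of 5′ untranslated region was 6.16%, or 1.26 times that of the genome. The shorter H3K27me3-free peaks differed most, with 45.0% coding and 10.7% intergenic sequence. Their share of 5′ untranslated region was 12.6%, or 2.56 times that of the genome, and so above that of members. The median G+C content was 36.2% for members (35.8% to 36.6%), 35.4% for broad peaks with H3K27me3, 39.8% for the shorter H3K27me3-free peaks and 36% for the genome.

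**Figure D2:**
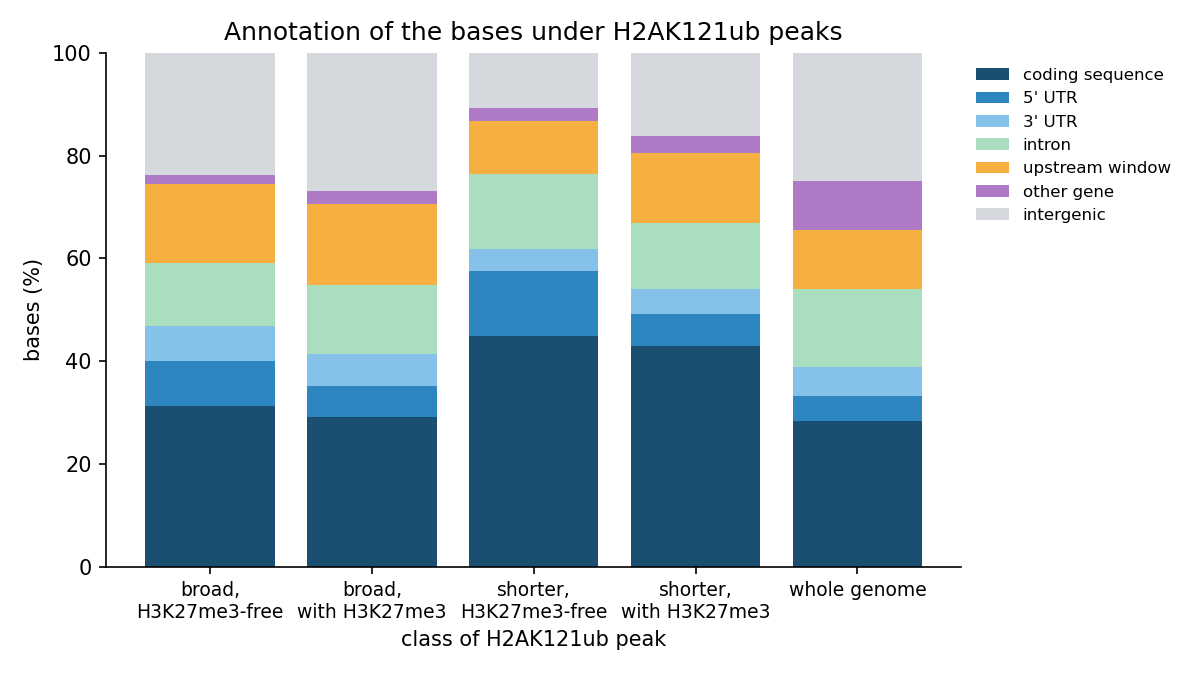
Share of bases (y axis, %) in each class of annotation, for the 4 classes of H2AK121ub peak and the whole genome. Coding sequence makes up 31.4% of the bases under broad H3K27me3-free peaks and 45.0% under shorter H3K27me3-free peaks, and intergenic sequence 23.8% and 10.7%.

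Among members, the added length of the longer peaks lay largely outside genes. Intergenic sequence was 16.5% of the bases in the 219 members of 3000 to under 3500 bp, 18.9% in the 136 of 3500 to under 4000 bp, 26.5% in the 151 of 4000 to under 5000 bp, 26.5% in the 67 of 5000 to under 6000 bp and 35.5% in the 55 of 6000 bp or more. Coding sequence took the opposite course, with 35.9%, 35%, 29.5%, 28% and 24.9% in the same order. The median number of coding genes stayed at 2 and the upstream windows between 14.4% and 16.3%. The median lead gene was between 2203.5 and 2583.5 bp long in all 5 length bins, while the median reach upstream of its TSS was 609, 530, 1589, 1845.5 and 2779.5 bp in the same order.

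**Figure D3:**
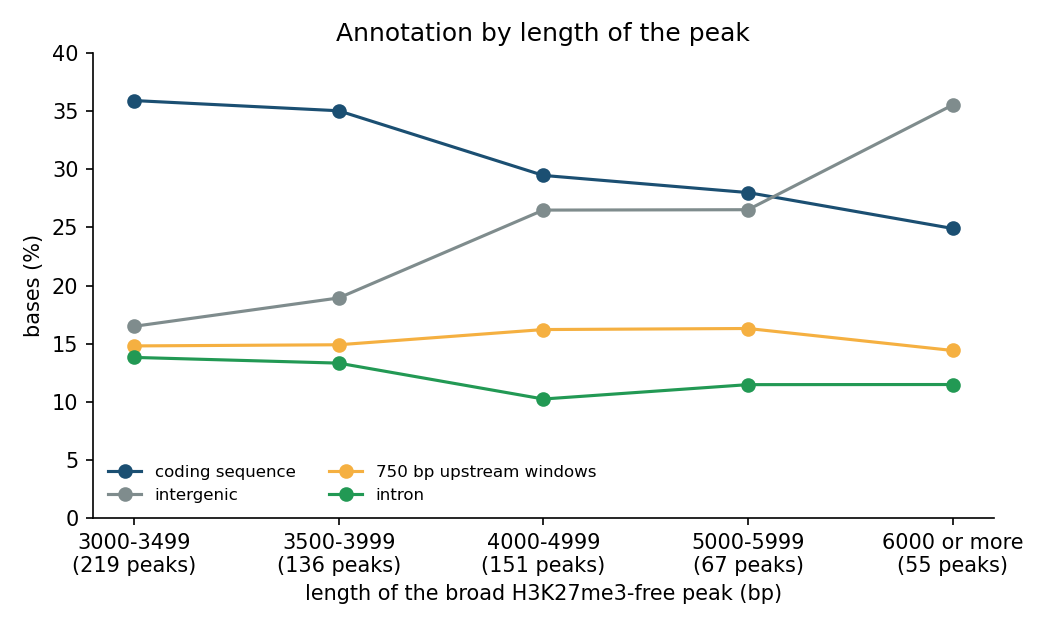
Share of bases (y axis, %) that is coding, intergenic, intronic or in 750 bp upstream windows, for broad H3K27me3-free peaks in 5 bins of length (x axis, bp, with the number of peaks). Intergenic sequence is 16.5% in the shortest bin and 35.5% in the longest, and coding sequence 35.9% and 24.9%.

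The 10 longest members were 8144 to 13196 bp long. The longest, 13196 bp (chr5:9647488-9660683), held the whole of SFP1 and 65.4% of its neighbour SFP2, a pair named for the sugar porter family. It was 46.5% intron, the highest share among the 10. The second, 11573 bp (chr5:20007400-20018972), held BXL1, a beta-xylosidase of the cell wall, in full, with the glycine-rich protein gene AT5G49350 in full and 95% of TBL4. It lay 527 bp from an H3K27me3 peak, the least among the 10.

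Several of the longest members held few genes in much intergenic sequence. The member over EXPA1 and AGL94 (chr1:26136455-26147887, 11433 bp) covered both bodies in full, EXPA1 being an expansin that loosens the cell wall and AGL94 a MADS-box gene, and 52.3% of it was intergenic. The member at EXPA4 (chr2:16544246-16555504, 11259 bp) covered 78.4% of that 1915 bp gene, stretched 9758 bp upstream of its TSS and was 70.8% intergenic. No other member reached as far upstream of its lead gene. The members over BRG3, a RING-type protein gene (9321 bp, 69.3% intergenic), XTH7, an enzyme that cuts and rejoins xyloglucan (8559 bp, 67.0%), and the Aux/IAA repressor gene PAP1 (AT3G16500, also named IAA26; 8225 bp, 58.1%) each held 1 TSS and the whole lead gene.

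Of the other 3 among the 10 longest, the first lay on chromosome 3. In this member of 9858 bp, AT3G57030 was covered in full and its neighbour of the same product name, AT3G57020, to 80.1%, and only the upstream window of ARR9, a response regulator of cytokinin signalling, was reached. The member of 9666 bp on chromosome 1 covered CYCD1;1, a D-type cyclin, and the uncharacterized AT1G70209 in full and 16.2% of AT1G70220. The member of 8144 bp on chromosome 4 (chr4:18120867-18129010) held 5 TSSs of coding genes, more than any other. It covered SAUR15, AT4G38840 and AT4G38825 of the SAUR family, the receptor-like kinase gene CRK26 and AT4G38820 in full.

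After it came 10 members with 4 start sites each, of which the 4 longest are described. The first of them (7564 bp, chr5:5961422-5968985) covered SAUR19 and SAUR20 in full and AT5G18030 of the same family to 75.6%, with 12.7% of VDD. Another (5659 bp, chr3:5045093-5050751) covered DJ1A and AT3G14981 in full, with 24.6% of RIP1 and 7.58% of ROS4. Of the remaining 2 of the 4, that of 6991 bp covered AT1G55205, AT1G55207 and the dirigent-like gene AT1G55210 in full, with 8.47% of AT1G55200. That of 5641 bp covered AT3G52070 and AT3G52075 in full, with 75.5% of AT3G52060 and 54.1% of the exchanger gene chx28.

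The gene with the most body bases under members was SFP1, with 5919 of 5919 bp. BXL1 followed with 5046 of 5046 bp, then LACS1, a long-chain acyl-CoA synthetase of wax and cutin synthesis, with 4829 of 5411 bp. BGAL14, a beta-galactosidase, had 4700 of 4873 bp, the bHLH gene AT2G43140 4495 of 4495 bp, and PHO1, which loads phosphate into the xylem, 4426 of 6070 bp. The copper amine oxidase gene CuAO1 had 4171 of 4393 bp, AT5G59080 4128 of 4175 bp, AT3G23470 3971 of 4169 bp and the NPH3 family gene AT1G67900 3863 of 5814 bp. None of these 10 genes held an H3K27me3 peak in its body or upstream window. Members share no base with H3K27me3 by rule, so for the covered bases this is no result.

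In all, 1169 protein coding genes lay under members, which is 4.26% of the 27444 and the background for the gene lists that follow. Their bodies were touched in 1095 cases, and in 74 (6.33%) the member reached the upstream window alone. The whole body was covered in 357 genes (30.5%). At least 50% of the body was covered in 786 genes, or 2.86% of all coding genes. In 20 of the 1169 genes (1.71%) an H3K27me3 peak lay elsewhere in the body or upstream window. Bases under members hold none by rule, so this share is low in part by choice. For comparison, 9.65% of coding genes lay under a broad peak with H3K27me3 and 68.1% under some H2AK121ub peak. None of the 7 Polycomb genes matched by name (EMF1, LHP1, RING1A, RING1B, BMI1A, CLF and SWN) lay under a member, and 5 of the 7 lay under a shorter H2AK121ub peak or a broad one with H3K27me3.

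Gene families were read from product names and symbols in 46 lists of 4 roles. The role of enzymes, wall and transport, which here also holds the SAUR and heat shock lists, stood highest, with 91 of 1128 genes under members (8.07%, 6.62% to 9.80%). Transcription factors were near the background, with 55 of 1201 (4.58%, 3.54% to 5.91%), and signalling genes (55 of 1812, 3.04%) and housekeeping genes (25 of 835, 2.99%) were lower, with intervals of 2.34% to 3.93% and 2.04% to 4.38%, of which the second includes the background. Under broad peaks with H3K27me3 the order was another: transcription factors had 19.2%, enzymes 17.8%, signalling genes 5.79% and housekeeping genes 5.15%, beside the 9.65% of all coding genes. In 6 lists the 95% interval lay above 4.26% and in 2 below it. With 46 lists some intervals miss the background by counting alone, and neighbouring genes of a family can share a peak, so the intervals are too narrow for clustered families.

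**Figure D4:**
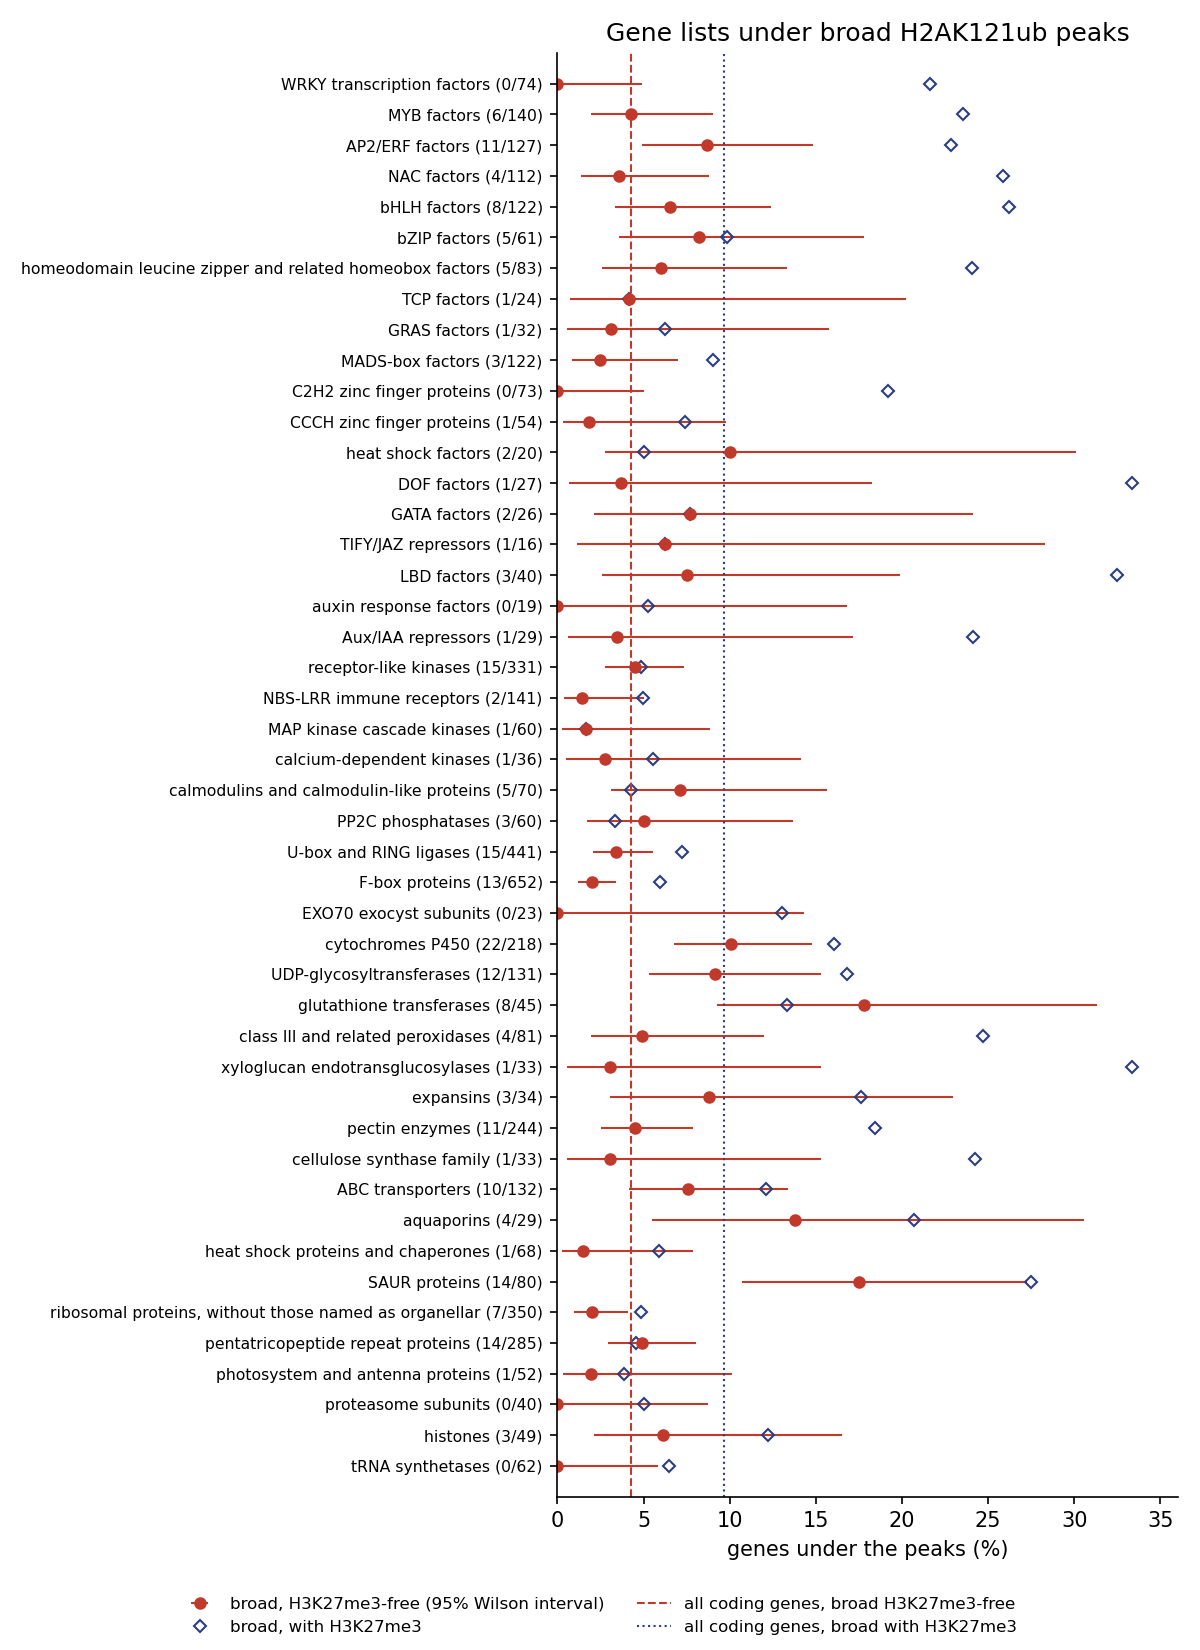
Share of each gene list (rows, with genes under the peaks of genes in the list) that lies under broad H3K27me3-free peaks, with 95% Wilson intervals, and under broad peaks with H3K27me3 (x axis, %). Vertical lines give the shares of all protein coding genes, 4.26% and 9.65%. SAUR genes, glutathione transferases and cytochromes P450 lie to the right of the first line with their intervals, and WRKY and C2H2 genes stand at 0 for the first class and at 21.6% and 19.2% for the second.

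SAUR genes, small auxin-induced regulators of cell expansion, had a high share, with 14 of 80 under members (17.5%, 10.7% to 27.3%). They fell in 7 peaks, and all 14 had at least 50% of the body covered. The median gene of the list was 815 bp long, and short genes are more easily covered by peaks of at least 3000 bp. Those with the most covered bases were AT3G60690 (1190 bp), AT1G16510 (872 bp) and SAUR15 (773 bp), each covered in full, and AT1G19830 (827 of 830 bp). Under broad peaks with H3K27me3 lay 27.5% of the list.

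Glutathione transferases, which conjugate glutathione to reactive or foreign molecules, had 8 of 45 genes under members (17.8%, 9.29% to 31.3%) in 5 peaks. Under broad peaks with H3K27me3 lay 13.3% of the list. GSTU13, GSTU5 and GSTU20 were covered in full and GSTU4 to 94.2%, with GSTU5 and GSTU4 in 1 member of 4902 bp on chromosome 2. All 4 named genes are of the tau class.

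Cytochromes P450, monooxygenases of specialised metabolism, had 22 of 218 genes under members (10.1%, 6.76% to 14.8%) in 12 peaks, 17 of them with at least 50% of the body. CYP76C2 was covered to 91.9%, CYP81D5 to 91.0%, CYP709B1 in full and CYP72A14 to 99.4%. UDP-glycosyltransferases, which attach sugars to small molecules, had 12 of 131 (9.16%, 5.32% to 15.3%) in 8 peaks. Those with the most covered bases were UGT88A1 (97.4%), AT5G59070 (100%), UGT73B2 (88.4%) and UGT84A2 (100%). The shares under broad peaks with H3K27me3 were 16.1% for cytochromes P450 and 16.8% for UDP-glycosyltransferases, against 9.65% of all coding genes.

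Among transport genes, aquaporins had 4 of 29 under members (13.8%, 5.5% to 30.6%). The plasma membrane aquaporins PIP2A and PIP1A were covered to 91.7% and 86.7%, NIP7;1 in full and TIP5;1 to 43.5%, in 4 separate peaks. ABC transporters had 10 of 132 (7.58%, 4.17% to 13.4%), of which 4 had at least 50% of the body covered: ABCG16 (94.1%), ABCG4 (100%), ABCG8 (94.7%) and AT3G21080 (100%). The median gene of the ABC list was 4523 bp long, against 2078 bp for all coding genes. Of aquaporins 20.7% and of ABC transporters 12.1% lay under broad peaks with H3K27me3.

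Of the wall families, expansins had 3 of 34 genes under members (8.82%), EXPB3 and EXPA1 in full and EXPA4 in part. Pectin enzymes had 11 of 244 (4.51%), led by PME3 (100%), AT3G10720 (99.7%), AT3G53190 (76.7%) and AT3G15720 (94.7%). Xyloglucan endotransglucosylases had 1 of 33 (3.03%), which was XTH7, and the cellulose synthase family 1 of 33, CEV1, reached in its upstream window alone. The peroxidase list had 4 of 81 (4.94%), and 3 of these, GPX7, APX1 and GPX2, are named as glutathione or ascorbate peroxidases and not as class III enzymes. Heat shock proteins had 1 of 68 (1.47%), the plastid chaperone gene HSP21, covered in full. For the peroxidase, xyloglucan endotransglucosylase, cellulose synthase and pectin lists the shares under broad peaks with H3K27me3 were between 18.4% and 33.3%.

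Transcription factor families stood on both sides of the background. AP2/ERF factors, many of which respond to ethylene or to drought and cold, had 11 of 127 genes under members (8.66%, 4.91% to 14.8%). AT1G36060, EBP and ERF5 were covered in full and AT4G32800 to 93.7%. Broad peaks with H3K27me3 held 22.8% of the AP2/ERF list. At the other end, none of 74 WRKY genes (upper 95% limit 4.93%) and none of 73 C2H2 zinc finger genes (5.0%) lay under a member, while 21.6% and 19.2% lay under broad peaks with H3K27me3. For auxin response factors the count was 0 of 19 (upper limit 16.8%). All 3 upper limits lie above 4.26%, so none of these lists can be told from the background.

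The remaining factor lists were between 1.85% and 10.0%. The bHLH list had 8 of 122 genes, led by AT2G43140 (100%), the epidermal regulator EGL3 (75.3%), bHLH093 (100%) and AT3G19500 (98.3%). MYB factors had 6 of 140, with MYB95 (98.4%), MYB59 (100%), MYB3 (95.9%) and MYB7 (91.8%). The bZIP list had 5 of 61, with BZIP34 (90.0%), GBF6 (100%), bZIP1 (88.8%) and TGA7 (28.6%). Homeodomain leucine zipper and related genes had 5 of 83, with HB31 (100%), HB5 (73.2%), HB-2 (98.5%) and HAT2 (100%).

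NAC factors had 4 of 112 genes, with NAC100, NAC083 and the senescence regulator NAP covered in full and NAC096 to 86.9%. LBD factors had 3 of 40, LBD37 and LBD39, repressors of nitrogen responses, in full and LBD4 to 66.5%. MADS-box factors had 3 of 122: SVP, a repressor of flowering, was covered to 76.4%, AGL94 in full and AGL93 to 94.7%. Shorter lists held 1 or 2 genes under members. These were HSFB4 and AT-HSFA7B of 20 heat shock factors, GATA9 and GATA2 of 26 GATA factors, and JAZ1 of 16 TIFY/JAZ repressors. They further included HAM1 of 32 GRAS factors, TCP24 of 24 TCP factors, AT5G66940 of 27 DOF factors, AT5G44260 of 54 CCCH zinc finger genes and PAP1 (AT3G16500) of 29 Aux/IAA repressors. TCP24 was covered to 12.7% alone.

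Signalling families were mostly at or below the background. Receptor-like kinases had 15 of 331 genes (4.53%) in 12 peaks, led by AT4G26540 (100%), AT5G56040 (82.2%), AT4G34220 (93.3%) and CRK26 (100%). Calmodulins and calmodulin-like proteins had 5 of 70 (7.14%), but SOS3, a calcium sensor of the salt response, was covered to 46.3% and CAM2 in its upstream window alone, beside AT2G41090 (100%) and AT1G05990 (91.0%). PP2C phosphatases had 3 of 60 (5.0%), AT3G16800 (56.8%), AT4G31860 (32.9%) and AT3G51370 (1.26%).

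U-box and RING ligases had 15 of 441 genes (3.40%), led by EDA18 (100%), ARI12 (77.5%), AT4G26580 (100%) and AT1G47570 (29.8%). F-box proteins, the substrate adaptors of ubiquitin ligases, had 13 of 652 (1.99%, 1.17% to 3.38%), an interval below the background, led by AT2G32560 (78.1%), AT3G07870 (91.2%), AT1G64540 (89.1%) and AT4G33160 (78.4%). NBS-LRR immune receptors had 2 of 141 (1.42%), RPP4 and AT1G17600, of which members covered 5.75% and 3.40%. MPK11 was the member of the MAP kinase cascade list (1 of 60) and CPK13 of the calcium-dependent kinases (1 of 36). None of 23 EXO70 genes lay under a member.

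Among housekeeping families, the interval of 1 list lay below the background. Ribosomal proteins had 7 of 350 genes under members (2.00%, 0.972% to 4.07%), which is that list, and 3 of them with at least 50% of the body, AT5G02440 (90.8%), AT3G11510 (80.8%) and AT4G33865 (58.2%), followed by AT1G80750 (32.1%). Pentatricopeptide repeat proteins, which process organelle RNA, had 14 of 285 (4.91%), close to the background, yet 1 of the 14 had at least 50% of its body covered. The named ones were AT5G16420 (38.6%), AT1G05005 (85.4%), LPA66 (34.8%) and AT2G48000 (32.3%). No gene of the 40 proteasome subunits and the 62 tRNA synthetases lay under a member, with upper limits of 8.76% and 5.83%, both above the background. Photosystem and antenna proteins had 1 of 52, LHCB4.3, covered in full. Histones had 3 of 49, the H3 genes AT3G27360 and AT5G10390 in full and AT5G10400 to 99.6%, the last pair in 1 member of 3089 bp. How reads from near-identical copies, such as histone or SAUR genes, were placed is not given in the sources used here, so calls over such copies are uncertain.

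Neighbouring genes under 1 member were often on the same strand. Members held 490 pairs of adjacent coding genes, and 285 (58.2%, 53.7% to 62.5%) were on the same strand, 105 (21.4%) divergent and 100 (20.4%) convergent. Of all 27439 adjacent pairs, 51.9% were on the same strand, and of the 1141 pairs in broad peaks with H3K27me3, 56.5%. Both genes of a pair had the same product name, apart from its digits, in 50 of the 490 pairs (10.2%, 7.83% to 13.2%), against 11.7% of pairs in broad peaks with H3K27me3 and 6.0% of all pairs. Genes must lie close together to share a peak, and the part of distance in this was not tested.

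These 50 pairs lay in 43 members. Examples, taken for having such a pair, were UGT71C5, UGT71C4 and UGT71C3 in 1 member of 5556 bp, CYP81D4, CYP81D3 and CYP81D2 in 1 of 6346 bp, and SAUR28, SAUR27, AT3G03847 and SAUR26 in 1 of 4488 bp. Others were ABCC3 and ABCC6, named as multidrug resistance-associated proteins, in 1 of 3615 bp, OPR1 and OPR2, 12-oxophytodienoate reductases, in 1 of 3789 bp, and BCAT-1 and BCAT-2, branched-chain amino acid transaminases, in 1 of 4963 bp. The selenium-binding protein genes SBP1 and SBP2 shared a member of 4808 bp.

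Noncoding genes were counted by the body alone, for which the share of coding genes was 3.99%. Under members lay 145 of 3480 lncRNA genes (4.17%, 3.55% to 4.88%), 13 of 326 microRNA genes (3.99%, 2.35% to 6.70%), 18 of 625 tRNA genes (2.88%) and 9 of 287 snoRNA genes (3.14%). Pseudogenes not annotated as transcribed were rare, with 10 of 3917 (0.255%, 0.139% to 0.469%), and 4.39% of them lay under any H2AK121ub peak. Transcribed pseudogenes had 11 of 926 under members (1.19%, 0.665% to 2.11%) and 33.9% under any H2AK121ub peak. The 13 microRNA genes, 68 to 377 bp long, were all covered in full. Beside MIR398b, MIR398c and MIR166a they were MIR156i, MIR156j, MIR167d, MIR169h, MIR171a, MIR415, MIR775, MIR822, MIR1888a and MIR4228, all named after their values were seen.

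The 24 members (3.82%) that touched no coding gene body were 3005 to 6561 bp long. Of broad peaks with H3K27me3, 3.56% touched none. The longest (6561 bp, chr2:16691013-16697573) lay over the lncRNA genes AT2G09095 and AT2G09100. Another (3327 bp, chromosome 3) lay over TAS3, whose RNA gives rise to small RNAs against auxin response factor mRNAs, and that of 3258 bp on chromosome 4 reached the upstream window of DER1.

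Promoters, taken as the 250 bp before and 50 bp after the TSS, were searched on both strands for 8 motifs where the TSS lay in a member (823 promoters). The telobox AAACCCTA, which is frequent in ribosomal protein promoters and is bound by factors linked to PRC2, was in 20 of them (2.43%, 1.58% to 3.72%). It was in 4.13% of promoters in broad peaks with H3K27me3, 6.19% in shorter H3K27me3-free peaks, 8.77% in shorter peaks with H3K27me3 and 6.22% of all 27444 promoters. Among the 20 were AT3G16780 and AT2G43110, a ribosomal protein and a pre-ribosome subunit gene, named after their values were seen. The rest of the 20 had product names unrelated to the ribosome, among them a cyclin, a UDP-glycosyltransferase, a dirigent-like protein and uncharacterized proteins. The site II motif TGGGCC, bound by TCP factors, was in 10.9% of member promoters (8.98% to 13.3%), against 12.4%, 18.0% and 11.8% in the other classes, in the same order, and 15.5% of all.

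The other motifs were near the share of all promoters. The purine repeat GAGAGA, called GAGA above, was in 29.2% of member promoters and 29.2% of all. The G-box CACGTG was in 7.90% and 7.68%, and the W-box core TTGACC in 12.6% and 14.2%. The TATA match, with the letters TATAAA, was in 52.1% and 52.1%. The auxin response motif TGTCTC was in 15.3% and 14.2%, and the GCC-box GCCGCC, a site of AP2/ERF factors, in 1.70% and 2.57%. Broad peaks with H3K27me3 had more promoters with CACGTG (11%) and TATAAA (59.8%) than members. The median G+C content of member promoters was 31.7%, against 32% for all. No 2 of the 8 motifs contain each other, and a match is a string of letters, not a bound site.

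**Figure D5:**
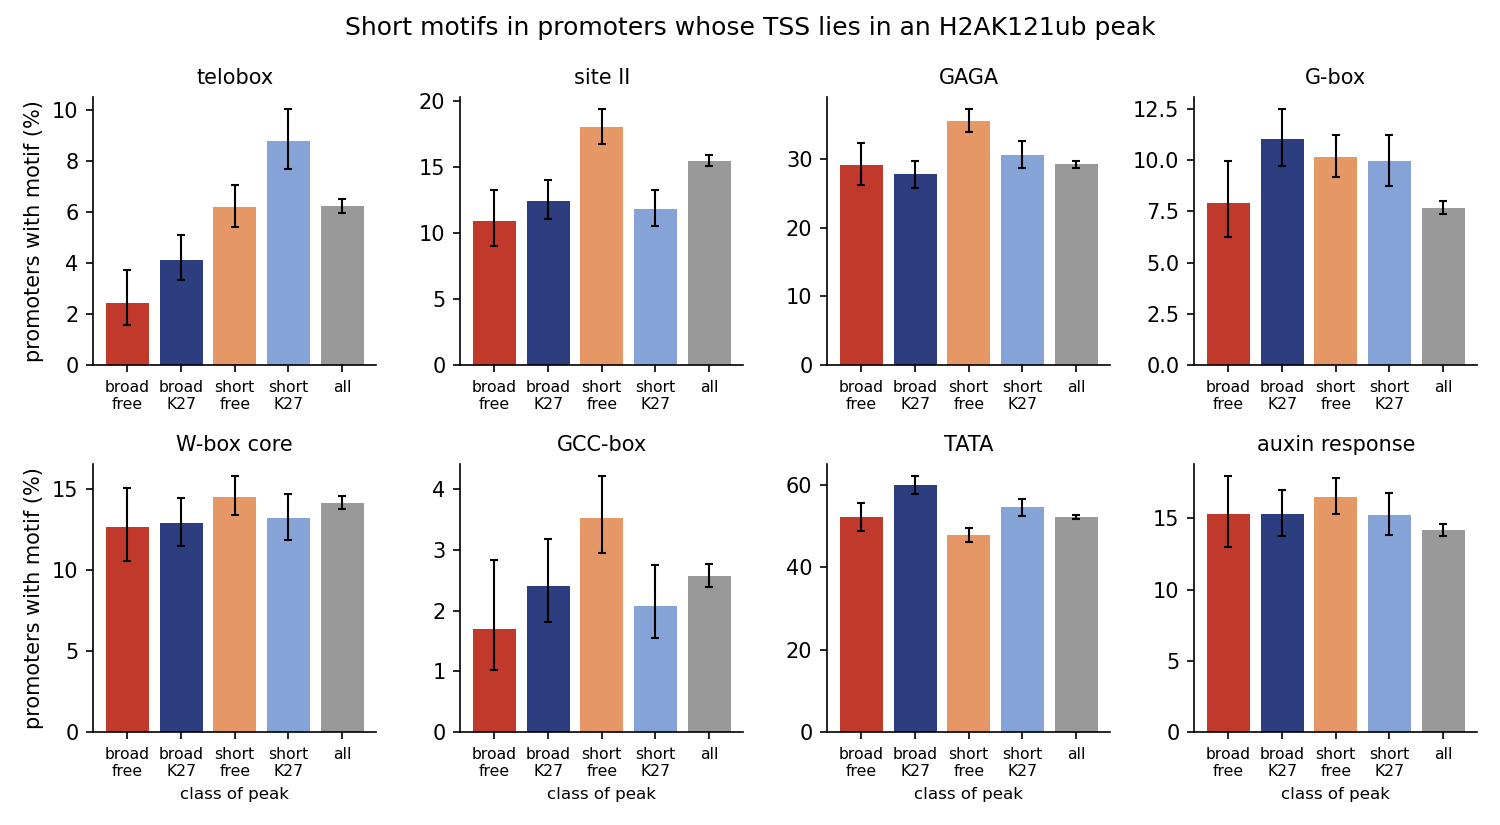
Share of promoters with each of 8 motifs (y axis, %, bars from 0 with 95% Wilson intervals), by the class of H2AK121ub peak that holds the TSS and for all coding genes. The telobox is in 2.43% of promoters in broad H3K27me3-free peaks and in 6.22% of all promoters, and site II in 10.9% and 15.5%.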

How the data were processed

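WT seedlings were the source of both lists, which the authors deposited as positions with no signal. By the methods of the study, the authors aligned read pairs with Bowtie on TAIR10, ran MACS2 with its default settings on every WT replicate, with an input for each age, kept the stretches that replicates shared and merged ages with bedtools. Versions are not given in the sources used here, nor is the treatment of reads that match several places. Default settings suit sharp signals, and taking the shared stretches trims peaks, so lengths depend on both.

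Positions were set against the RefSeq annotation of TAIR10.1, whose nuclear chromosomes have the lengths of TAIR10, and are given from 1. Overlaps and shares were computed with Python 3.11.15, numpy 2.4.6, pandas 2.3.3 and scipy 1.17.1, and checked on simulated peaks by base-by-base counting. Each base had 1 class, in the order coding sequence, 5′ and 3′ untranslated region, intron, upstream window, other gene, intergenic. A peak was in an arm where its window of 100 kb had 30% or more of its bases in coding genes. Shares have 95% Wilson intervals and medians order-statistic intervals.

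The members, lists and alternatives were chosen with earlier results of these data known. Genes were assigned as the authors did, by body or 750 bp window. Named were the 10 longest members, the 10 genes with the most covered bases, the 5 members with the most TSSs, up to 4 genes in each list with at least 3 under members, the peaks next to the thresholds and the Polycomb genes of the mutants, of which BMI1B and BMI1C were not matched by name. The alternatives were other lengths, distances and joins of peaks, other gene rules, and each chromosome left out.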

Additional observations from a re-analysis of the deposited data

How the results depend on the processing

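The lists hold no depth, score or replicate, so a region without a call is not shown to lack a mark, and a stretch of weak H3K27me3 can stand among the members. No paired analysis was possible because replicates were reduced to their shared stretches in 1 list per mark, and for the same reason no replicate could be left out. Of 89 values under the alternatives, 77 stayed within 1.5 times the count or within the 95% interval, among them all of those with each chromosome left out, arms alone, peaks joined across 500 bp, up to 100 bp of H3K27me3 allowed or H3K27me3 at least 1000 bp away. Those settings left 462 to 632 peaks beside the 628 members, so their values had little room to move. For coding sequence the interval was taken over the number of peaks. The length minimum moved most. With 2500 bp there were 974 peaks, 82.0% of them with a TSS, and the median cover of the lead gene was 91.0%. With 4000 bp there were 273 peaks over 562 genes, 92.7% with a TSS, a median cover of 100% and 27.8% coding sequence. Counting the start of any annotated transcript gave 89.6% of peaks with a TSS, and all annotated genes 89.8%. Taking as lead the gene whose TSS was nearest the peak midpoint gave a median cover of 90.6% and a median length of 2161.5 bp.

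Of 138 alternative values of the family lists, 126 stayed within the interval. With at least 50% of the body required, 9 lists left it, among them pentatricopeptide repeat proteins (0.351%), ABC transporters (3.03%) and ribosomal proteins (0.857%), beside 2.86% of all coding genes. With 2500 bp, NAC factors had 8.93% and ribosomal proteins 4.57%, beside 6.28% of all coding genes. With the body alone, the cellulose synthase family had 0%.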

Other observations

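Product names were also counted one by one, for names of at least 10 genes with at least 3 under broad H3K27me3-free peaks. They were picked after their values were seen, so they are given as counts alone. Of 11 genes named calcium-dependent phosphotriesterase, 4 lay under these peaks, of 13 MBOAT acyltransferase genes 4, and of 15 multidrug resistance-associated proteins, which are also in the list of ABC transporters, 4. Of 33 phototropic-responsive NPH3 family genes 6 were under them, of 15 auxin efflux carrier genes 3, of 19 GH3 genes, which conjugate auxin or jasmonate to amino acids, 3, and of 27 tau-class glutathione transferases, which are also in the glutathione transferase list, 7. For names of 11 to 33 genes, needing at least 3 under these peaks sets the share above the 4.26% of all coding genes in advance. Some of these genes also share a peak with a neighbour of the same name.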
